A study of Arabidopsis thaliana with 24 samples.

Results

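The deposited root transcriptomes of Arabidopsis thaliana hold 102 nuclear genes that are annotated as noncoding RNA and were expressed. They were chosen as rows on chromosomes 1 to 5 whose biotype in the Col-0 table was neither protein-coding nor rRNA, tRNA, snRNA, snoRNA, miRNA, pseudogene or transposable element. They also had to be present in both expression tables and to average at least 5 FPKM (fragment counts divided by transcript length and library size) over all 24 libraries. In all, 379 such noncoding rows stood in both tables among 32844 genes, and 41 of the 379 were listed at 0 in every library. The mean level chose the members, so levels are given here as a description. The members nearest above the threshold were AT4G03935 at 5.15, AT1G67365 at 5.14 and AT1G49832 at 5.11 FPKM, and the nearest rows below it were AT2G46192 at 4.83, AT5G01595 at 4.68 and AT1G80325 at 4.66 FPKM.

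Poly(A) RNA of whole roots was sequenced in 8 groups of 3 libraries, which compared plants flown on suborbital rockets with ground controls. Wild-type Col-0 and WS, both 10 days old, flew on Virgin Galactic VP-03 (VG), and WS and sku5, both 11 days old, flew on Blue Origin NS-12 (BO), each with a ground group of the same line and age. The sku5 line (CS16268) is a mutant in the WS background of SKU5, a cell-wall glycoprotein of directional root growth. Each flight gave about 3 min of microgravity, and the peak load of VG was about 4.5 g going up and 3.5 g coming down, that of BO about 3 g and 5.7 g. Flown plates were wrapped in black-out cloth, BO seedlings were fixed 33 min after landing, and BO ground seedlings were kept in a plant cultivator and harvested 1 h after the flown ones. The replicates of a condition came from roots fixed together in 1 tube, so p-values measure the spread between such samples. On BO the wrapping described for flown plates, the housing of ground seedlings and the time of harvest cannot be told apart from flight. VG and BO also differed in year, site, age and ground housing, and these cannot be told apart from the vehicle.

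Long noncoding RNAs are transcribed, capped and often polyadenylated like messenger RNAs, but act or are processed as RNA. Some lie antisense to a coding gene, some lie between genes, and a few are precursors of small RNAs. The best described plant precursors are the TAS transcripts: a microRNA guides an Argonaute protein to cut them, the RNA polymerase RDR6 copies the cut RNA, and the Dicer enzyme DCL4 cuts the duplex into trans-acting siRNAs. TAS1 and TAS2 siRNAs act mainly on pentatricopeptide repeat genes, and TAS3 siRNAs act on auxin response factor genes.

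The 5 TAS precursors among the members were TAS1A, TAS1B, TAS1C, TAS2 and TAS3, and the sites at which their microRNAs pair are shown because these sites make the transcripts siRNA sources. MicroRNA sequences are from RefSeq, with the seed (bases 2 to 8) in capitals, and sites are from TAIR10.1 on the transcript strand, with bases that form a Watson-Crick pair with the microRNA in capitals.
miR173-5p: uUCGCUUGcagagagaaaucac
TAS1A site, chr2:11722081-11722102, minus strand: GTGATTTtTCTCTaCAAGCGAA
TAS1B site, chr1:18549660-18549681, minus strand: GTGATTTtTCTCaaCAAGCGAA
TAS1C site, chr2:16537890-16537911, minus strand: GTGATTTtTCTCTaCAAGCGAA
TAS2 site, chr2:16539991-16540012, minus strand: GTGATTTtTCTCTcCAAGCGAA
miR390a-5p: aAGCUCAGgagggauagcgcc
TAS3 upstream site, chr3:5862099-5862119, plus strand: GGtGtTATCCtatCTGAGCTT
TAS3 downstream site, chr3:5862343-5862363, plus strand: ttgtCTATCCCTCCTGAGCTa
TAS1A and TAS1C carried the same site, with 20 of 22 bases paired, TAS2 also paired at 20, and TAS1B paired at 19. Each TAS3 site paired at 16 of 21 bases, and the seed was fully paired in every site.

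Promoter stretches of AT1G11175 and AT1G66173, the 2 members with the largest called rises on BO, are also shown. Each runs from 250 bases before to 50 bases after the gene's start in RefSeq's TAIR10.1 annotation, on the plus strand. Capitals mark a TATCCA element, here on the opposite strand.
AT1G11175, chr1:3744608-3744907: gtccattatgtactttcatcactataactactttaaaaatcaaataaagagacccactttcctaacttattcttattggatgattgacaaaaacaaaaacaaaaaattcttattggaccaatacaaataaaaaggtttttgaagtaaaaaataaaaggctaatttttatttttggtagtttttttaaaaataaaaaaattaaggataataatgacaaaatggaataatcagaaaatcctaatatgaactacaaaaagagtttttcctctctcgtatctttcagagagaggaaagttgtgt
AT1G66173, chr1:24642336-24642635: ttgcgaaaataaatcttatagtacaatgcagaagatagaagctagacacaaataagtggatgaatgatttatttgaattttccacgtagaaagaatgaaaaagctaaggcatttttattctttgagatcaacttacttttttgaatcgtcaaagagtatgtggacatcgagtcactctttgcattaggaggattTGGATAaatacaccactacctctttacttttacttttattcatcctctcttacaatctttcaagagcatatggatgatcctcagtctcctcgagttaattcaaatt
Searched on both strands of such 300-base windows, TATCCA was present in 17.6% of the members' promoters and 15.8% of all promoters. The G-box CACGTG was present in 9.8% against 6.46%, the I-box GATAAG in 13.7% against 15.1%, and the evening element AAAATATCT in 1.96% against 2.49%. None of the 4 motifs was found in the AT1G11175 window, which says only that these letters are not there.

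Between 18176 and 18877 genes reached 1 FPKM in a library, and rRNA rows took 12.6% to 26.9% of summed FPKM. Read totals were not given, so depth is unknown. SKU5 stood at 3.17 to 9.85 FPKM in sku5 libraries and at 27.6 to 94.2 FPKM in WS libraries of the same table. The libraries of WS VG flight replicate 2, sku5 BO flight replicate 3 and sku5 BO ground replicate 3 stood apart on the third principal component of the WS and sku5 libraries. Without these 3 libraries 23 members were called in sku5 on BO, 0 in WS on VG and 12 in the vehicle comparison, each described further on. Among the Col-0 libraries, flight replicate 2 stood apart on the first principal component (loading 0.902) and ground replicate 2 on the second (0.851). With single Col-0 libraries left out, 0 members were called in Col-0. No pair of libraries held identical values.

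The 102 RNAs were mostly short, single-exon and modestly expressed. Their mean level ran from 5.11 to 2272 FPKM with a median of 17.2 FPKM, and 17 averaged 100 FPKM or more while 30 averaged under 10 FPKM. In the reference annotation 63 had a single exon and 39 were spliced, and the median spliced length was 979 bases (135 to 2954). On the opposite strand of a coding gene lay 45 of them. A near-identical copy elsewhere in the genome was found for 10 members, so their reads could be split, and in 4 an open reading frame filled the whole annotated transcript. IPS1 and AT4, familiar plant noncoding RNAs, carry a protein-coding biotype in the deposited table and are therefore not members. The familiar 7SL RNA carries that biotype too, and its mean of 0.67 FPKM also lies under the threshold.

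AT1G10682 (chr1:3544913-3545614, minus strand), an intergenic single-exon RNA, was the most abundant member in every group. It alone made up 25.4% of the members' summed mean level, and the top 5 members made up 51.7%. Its level was 2527 to 3225 FPKM in Col-0 and 1412 to 2729 FPKM in the WS and sku5 libraries. It was called in none of the 8 comparisons. The next in rank were AT1G15405, AT3G12965, AT1G79075 and AT5G07322. AT1G15405 lies wholly within another annotated noncoding gene on its strand, AT1G05163, so the reads of the pair cannot be told apart.

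On BO, flown WS roots held more of a group of noncoding RNAs than ground roots. The test throughout was limma's moderated test on log2(FPKM + 1), fitted over all genes with at least 1 FPKM in 3 libraries, and a gene is called when its Benjamini-Hochberg adjusted p is under 0.05. A log2 change is the difference of group means on that scale and understates the change of low genes. In WS on BO, 90 members could be tested, of which 18 rose and 4 fell. That is 24.4% of the tested members, against 11.7% of all 20127 genes tested and 14.0% of genes averaging 5 FPKM or more. Rises alone were 5.51% and falls 6.15% of all genes. The median change was 0.22 over the members and -0.08 over all genes.

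AT1G11175 (chr1:3744858-3745655, plus strand), a single-exon RNA whose nearest coding gene is SCAMP2, of a secretory carrier membrane protein, had the largest called rise. Its level was 57.7, 84.0 and 59.3 FPKM in the flown WS libraries and 9.22, 25.1 and 15.8 FPKM in the ground libraries. Every flown library lay above every ground library (log2 change 2.02, SE 0.28, adjusted p = 0.000376). In sku5 it stood at 50.0, 41.2 and 50.7 FPKM after flight and at 14.6, 16.1 and 16.0 FPKM on the ground. These groups did not overlap either (1.54, SE 0.28, adjusted p = 0.00238).

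AT1G66173 (chr1:24642586-24644068, plus strand) is a low-level intergenic RNA. It stood at 6.34, 7.24 and 9.87 FPKM after flight and 0.98, 1.43 and 1.55 FPKM on the ground in WS, with no overlap (1.92, SE 0.30, adjusted p = 0.000976). In sku5 the flown libraries held 8.94, 3.49 and 4.24 FPKM and the ground libraries 0.49, 1.18 and 0.75 FPKM, again apart (1.79, SE 0.30, adjusted p = 0.0016).

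AT4G38932 (chr4:18151827-18152597, minus strand), which RefSeq notes as a natural antisense transcript of AT4G38930 although the annotated genes do not overlap, had the smallest adjusted p. Flown WS libraries held 118, 167 and 141 FPKM and ground libraries 45.2, 63.4 and 56.7 FPKM. The groups were apart (1.35, SE 0.14, adjusted p = 9.42e-05), as they were in sku5, at 111, 103 and 112 FPKM against 45.3, 49.4 and 44.2 FPKM (1.21, SE 0.14, adjusted p = 0.000112). The plot of levels by library shows these 3 RNAs and 3 that fell in WS.

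**Figure D1:**
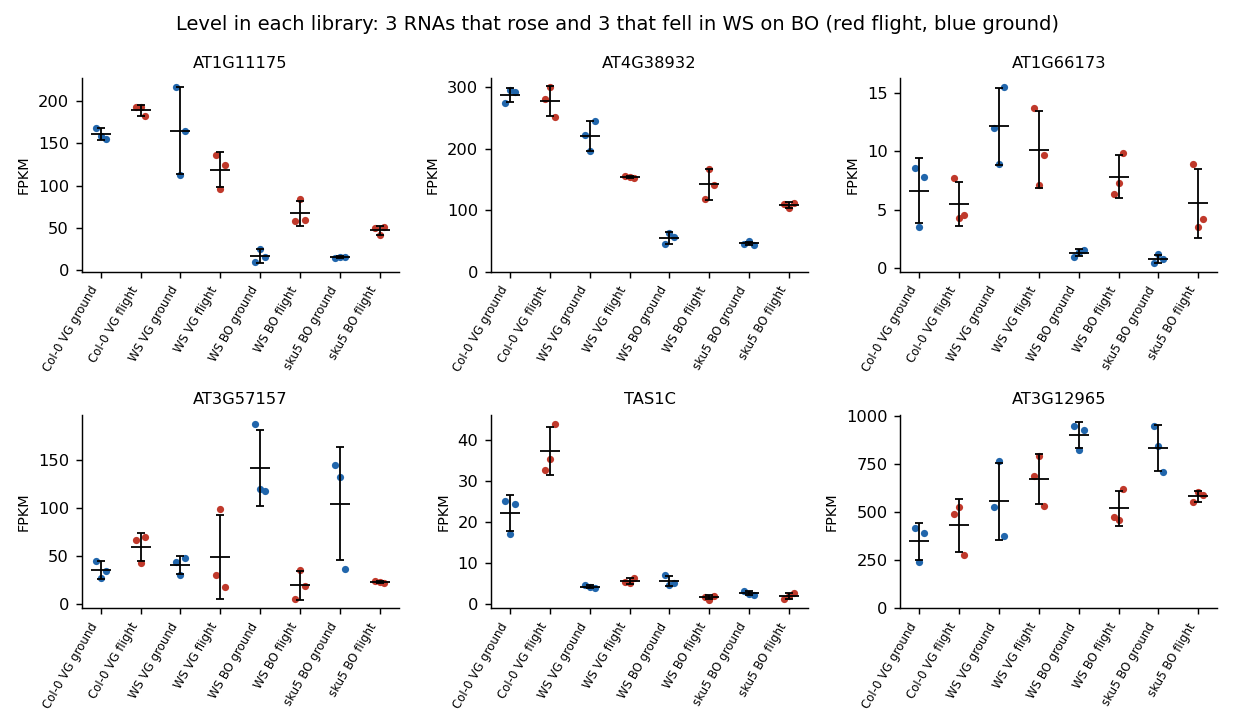
Level in FPKM (linear axis) of 3 noncoding RNAs that rose (AT1G11175, AT4G38932, AT1G66173) and 3 that fell (AT3G57157, TAS1C, AT3G12965) in WS on BO, in each library of the 8 groups. Points are libraries, red for flight and blue for ground, and the bar and whiskers are mean and SD (n = 3). In the upper row BO flight points lie above BO ground points in WS and in sku5.

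In sku5 on BO, 17 members rose and 2 fell, which is 21.1% of the 90 tested, against 10.3% of all genes. All genes include those under the members' threshold of 5 FPKM, and the share above it was not computed for sku5. Rises were 5.05% and falls 5.25% of all genes, and the median change was 0.15 over the members and -0.09 over all genes. Of the RNAs that rose, 13 rose in both lines, which is 72.2% of those in WS and 76.5% of those in sku5. Over all genes the shares of rises held in common were 71% and 77.5%. The 13 were AT1G11175, AT1G11185, AT1G46554, AT1G66173, AT1G69252, AT2G13665, AT2G14878, AT2G18735, AT2G31585, AT3G48115, AT4G15242, AT4G38932 and AT5G24735. Their log2 changes ran from 0.79 to 2.02 in WS and from 0.86 to 1.79 in sku5.

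The most abundant of the 13 was AT2G31585, at 231, 327 and 233 FPKM after flight and 107, 143 and 148 FPKM on the ground in WS. The groups did not overlap (0.98, SE 0.20, adjusted p = 0.00468). AT5G24735, a spliced RNA, stood at 113, 170 and 126 FPKM after flight and at 37.9, 65.0 and 46.9 FPKM on the ground, also without overlap (1.45, SE 0.24, adjusted p = 0.0013). AT1G69252 stood at 86.7, 114 and 89.5 FPKM against 21.5, 48.7 and 43.6 FPKM, and here too all flown libraries were higher (1.40, SE 0.26, adjusted p = 0.00245). AT2G14878 had changes of 0.80 in WS (SE 0.19, adjusted p = 0.0141) and 1.32 in sku5 (SE 0.19, adjusted p = 0.000646).

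Called higher in WS but not in sku5 were AT1G70581, AT3G46668, AT3G61198, AT4G20362 and AT5G09443, and called higher in sku5 but not in WS were AT1G07728, AT1G78265, AT2G26355 and AT3G54366. No member was called for a difference between the lines in its BO flight change. The test of that difference called 0 of 90 members and 0.00% of all genes at an adjusted p under 0.05, with 6 members and 317 genes at an unadjusted p under 0.05. On the ground at BO no member was called between sku5 and WS (0 of 90 called by limma, against 0.0149% of all genes, with 7 members at an unadjusted p under 0.05). Of these 90 members, 63 had a lower mean in sku5, with a median difference of -0.21 against -0.01 over all genes.

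The 4 members that fell in WS on BO were of different kinds. AT3G57157 (chr3:21157011-21157247, plus strand) is 1 of the 4 RNAs in which an open reading frame fills the annotated transcript. It stood at 5.22, 35.4 and 18.7 FPKM after flight and at 188, 120 and 119 FPKM on the ground. All flown libraries were lower, and their own spread was wide (-3.09, SE 0.61, adjusted p = 0.00426). In sku5 it held 23.8, 22.6 and 22.3 FPKM after flight and 145, 133 and 36.9 FPKM on the ground, a difference of -1.92 that did not pass (adjusted p = 0.0563).

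TAS1C, a miR173 target and siRNA precursor, was also lower after flight in WS. It stood at 1.85, 1.14 and 2.12 FPKM in flown and at 7.05, 4.80 and 5.27 FPKM in ground libraries, and the groups were apart (-1.31, SE 0.22, adjusted p = 0.00149). In sku5 it stood at 1.35, 2.00 and 2.77 FPKM against 3.17, 2.61 and 2.21 FPKM, and these overlapped (-0.29, adjusted p = 0.452). The test of the difference between the lines gave 1.03 (SE 0.31) with an adjusted p of 1. The annotated TAS1C gene overlaps AT2G39670 on the other strand by 31 bases, 3.13% of TAS1C. How strand was used in counting is not stated, so reads within that short overlap cannot be told apart. AT2G39670 itself was not called, at 16.1 ± 2.90 FPKM after flight and 17.3 ± 1.59 FPKM on the ground (SD, n = 3).

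AT3G12965, one of the most abundant members, stood at 477, 461 and 623 FPKM after flight and at 951, 822 and 927 FPKM on the ground (-0.80, SE 0.21, adjusted p = 0.0226). Its call was lost without WS flight replicate 1 or 2 or ground replicate 1 or 3 (adjusted p from 0.073 to 0.0914). AT2G05914 was lower after flight in both lines, by -0.43 in WS (SE 0.13, adjusted p = 0.0418) and -0.44 in sku5 (SE 0.13, adjusted p = 0.0445). Flown and ground libraries were apart in each, though the difference was small and its call was lost when any 1 of these 12 libraries was left out, sku5 flight replicate 3 excepted. AT1G18745 fell in sku5, from 10.8, 12.7 and 10.3 FPKM on the ground to 3.98, 8.65 and 1.34 FPKM after flight (-1.34, SE 0.34, adjusted p = 0.0175). This transcript spans 4 snoRNA genes on its own strand. Without the 3 WS and sku5 libraries that stood apart its adjusted p was 0.0616. The call was also lost without sku5 flight replicate 1 or ground replicate 1 or 2 (0.0515 to 0.0624) and when only the compared libraries were fitted (0.121).

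On VG none of the tested members was called in either accession. In WS limma called 0 of 90 members, against 0.0298% of all genes, and 11 members had an unadjusted p under 0.05. In Col-0 it called 0 of 96 members, against 0.00532% of all genes, and 9 had an unadjusted p under 0.05. The lowest adjusted p among members was 0.301 in WS and 0.581 in Col-0. In WS 64 of the 90 members had a lower mean after flight, with a median of -0.18 against -0.02 over all genes, while in Col-0 48 were lower and 48 higher.

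AT1G11185 (chr1:3749510-3750035, plus strand), whose nearest coding gene is BFN1, a nuclease gene of senescing and dying cells, had the lowest adjusted p in Col-0. Its level was 74.8, 51.4 and 50.9 FPKM in flown Col-0 and 99.6, 109 and 116 FPKM in ground Col-0. In WS it was 175, 96.7 and 122 FPKM after VG flight and 193, 243 and 244 FPKM on the VG ground. Flown libraries were below ground libraries in both accessions, but neither difference passed over all genes (-0.89, SE 0.17, adjusted p = 0.581 in Col-0, and -0.82, SE 0.23, adjusted p = 0.321 in WS). On BO the same RNA rose, by 1.195 in WS (SE 0.23, adjusted p = 0.0037) and 1.21 in sku5 (SE 0.23, adjusted p = 0.00363).

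The flight change of WS differed between the vehicles for 17 members. The test of the BO change minus the VG change called 14 members in the positive and 3 in the negative direction, 18.9% of the 90 tested, against 6.83% of all genes (3.63% positive and 3.20% negative). The share among genes averaging 5 FPKM or more was not computed for this test. The median difference was 0.39 over the members and -0.07 over all genes. The smallest adjusted p belonged to AT4G38932, at 1.86 (SE 0.20, adjusted p = 0.000823). For this RNA WS stood at 155, 155 and 152 FPKM after VG flight and at 222, 196 and 246 FPKM on the VG ground, so its flown libraries were the lower ones there and the higher ones at BO. AT2G13665, antisense to AT2G13660, had the same layout, with 18.9, 14.9 and 22.0 FPKM after VG flight against 27.4, 23.1 and 29.6 FPKM on the VG ground, and 14.8, 13.9 and 16.4 FPKM after BO flight against 4.20, 5.79 and 5.88 FPKM on the BO ground (1.87, SE 0.26, adjusted p = 0.00195).

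**Figure D2:**
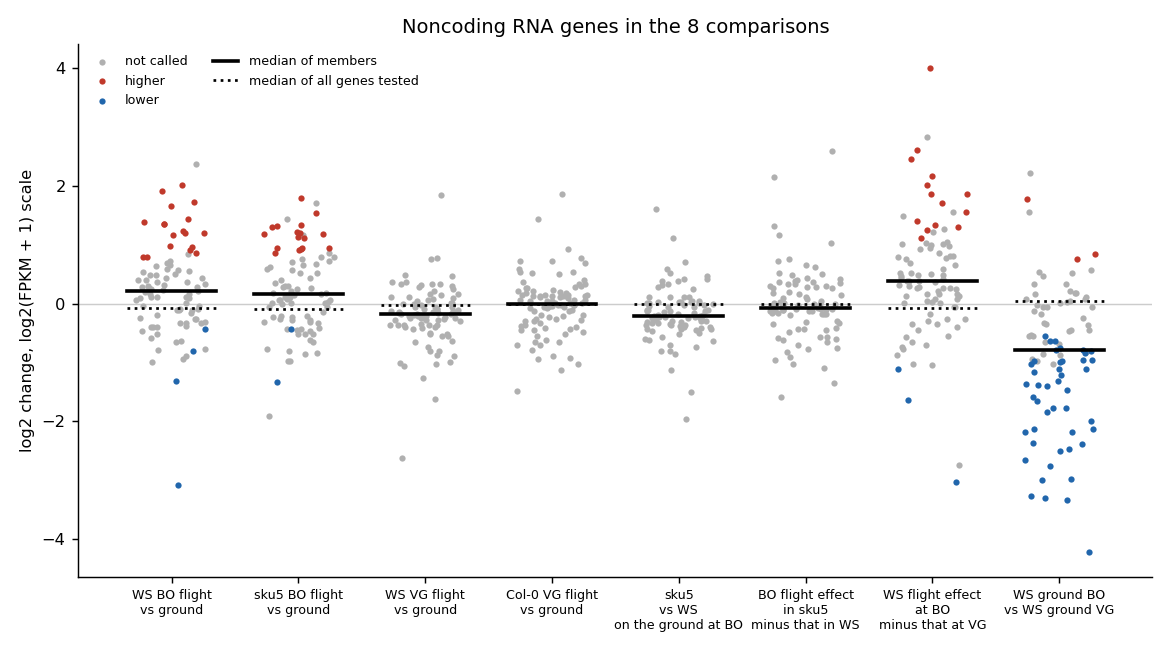
Log2 change on the log2(FPKM + 1) scale of each tested member (90 in WS and sku5 comparisons, 96 in Col-0) in the 8 comparisons. Each point is 1 RNA, red if called higher, blue if called lower and grey if not called, with sideways spread for legibility, solid lines for the members' median and dotted lines for the median of all genes. Calls are found in both BO flight comparisons, the vehicle difference and the ground comparison, where the members' median is -0.80.

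The widest differences lay between the ground groups. WS ground roots at BO held less than WS ground roots at VG of 45 members and more of 3, together 53.3% of the 90 tested, against 32.2% of all genes (16.9% higher and 15.3% lower). The median difference was -0.80 over the members and 0.04 over all genes. The members were chosen on a mean that includes both sites: all 45 averaged 5 FPKM or more in WS at VG, and 37 of them did so over the 12 BO libraries. Among the 70 tested members that averaged 5 FPKM or more over the BO libraries, 37 were lower and 3 higher at BO, against 15.9% lower of the 14725 tested genes at that level.

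AT1G67105 (chr1:25057479-25058264, plus strand), an intergenic RNA, had the largest difference. Its level was 70.0, 39.3 and 81.2 FPKM on the VG ground and 2.03, 1.68 and 3.34 FPKM on the BO ground (-4.24, SE 0.42, adjusted p = 1.51e-06). The flown WS groups were also apart, with 57.2, 64.7 and 84.9 FPKM at VG and 3.13, 2.54 and 4.88 FPKM at BO. AT1G11175 differed by -3.28 (adjusted p = 3.17e-07), AT3G61198 by -3.31 (adjusted p = 3.11e-06) and AT2G14878 by -2.67 (adjusted p = 6.9e-08). GUT15, the relative of an unstable tobacco transcript, stood at 207, 192 and 212 FPKM on the VG ground and at 46.8, 69.8 and 61.1 FPKM on the BO ground (-1.78, SE 0.36, adjusted p = 0.00119). The 3 that were higher at BO were AT3G57157, AT1G67328 and AT3G12965. The call of AT3G57157 (1.77, adjusted p = 0.0359) was lost when any 1 of the 6 libraries was left out and without the filter on low values (0.0584 to 0.121), and that of AT3G12965 (0.75, adjusted p = 0.0128) without VG ground replicate 3 (0.0863). This comparison, the WS flight change on BO and the vehicle difference share the WS BO ground libraries, so only each RNA's own values are set side by side.

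RNAs that rose in flown sku5 were mostly those that were low on the BO ground in WS. These comparisons share no library, but both use BO ground seedlings kept and harvested alike, and both come from the same fit. Of the 17 that rose in sku5, 16 were lower in WS ground roots at BO than at VG, which is 94.1% of the 17 and 35.6% of the 45. Over all genes the overlap was 699, which is 68.8% of the 1016 that rose and 22.7% of the 3074 that were lower. The starting shares also differ: 45 of the 90 tested members were lower on the BO ground, against 15.3% of all genes. Across the 90 members the sku5 flight change and the WS ground difference had a Pearson r of -0.58 and a Spearman rho of -0.56. Across all 20127 genes these were -0.48 and -0.48, as a description, since genes are not independent replicates and the points share their libraries.

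**Figure D3:**
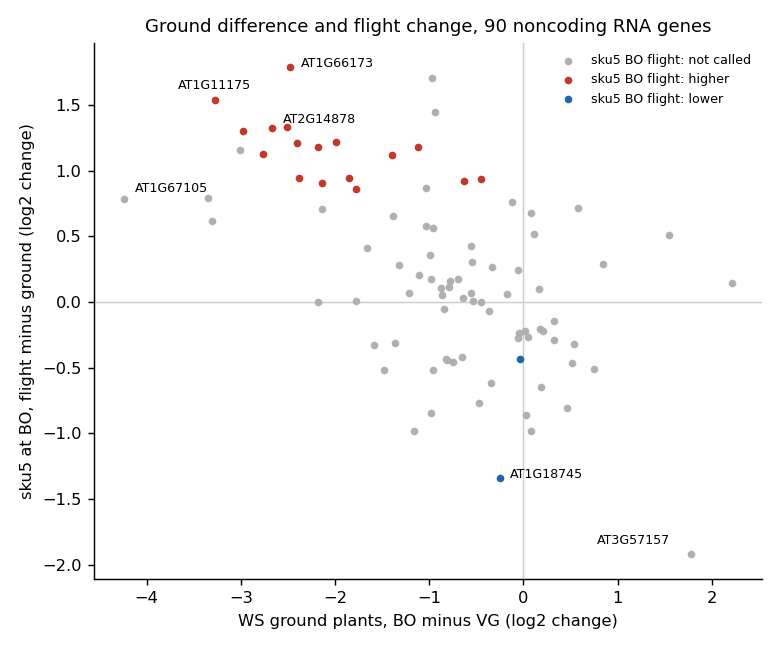
Difference between WS ground roots at BO and at VG (x axis, log2) against the change of sku5 roots with BO flight (y axis, log2) for the 90 tested noncoding RNAs. Each point is 1 RNA, red if called higher and blue if called lower in sku5 BO flight. The red points lie to the left of 0, where RNAs were lower on the BO ground, and AT3G57157 lies at the lower right.

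Among the trans-acting siRNA precursors, TAS1C was the only one called with flight. TAS1A, TAS1B and TAS2 had negative changes on BO that were not called. These were -0.46, -0.19 and -0.39 in WS and -0.32, -0.28 and -0.46 in sku5. Those of TAS3 were 0.11 in WS and 0.12 in sku5. TAS1C was called in WS on BO as given above, and at VG its flown libraries lay above the ground libraries without passing: 5.37, 5.20 and 6.43 FPKM against 4.61, 4.29 and 4.02 FPKM in WS (0.33, adjusted p = 0.648), and 32.8, 35.5 and 44.1 FPKM against 25.2, 17.2 and 24.6 FPKM in Col-0 (0.73, adjusted p = 0.911). The test of the vehicle difference in WS called TAS1C lower (-1.64, SE 0.31, adjusted p = 0.00808). TAS2 and TAS3 were called in no flight comparison, and both were lower on the BO ground than on the VG ground. TAS3 stood there at 71.8, 69.6 and 71.1 FPKM against 127, 122 and 120 FPKM (-0.79, SE 0.22, adjusted p = 0.013), and TAS2 at 24.6, 16.4 and 20.0 FPKM against 31.9, 39.1 and 32.7 FPKM (-0.75, SE 0.25, adjusted p = 0.0292). The TAS3 call held in all 13 alternative settings, while that of TAS2 was lost in 5, each without 1 library, BO ground replicate 1 excepted (0.0506 to 0.113). TAS1A and TAS1B were called in no comparison. ZPR4, which is annotated here as noncoding although it is known to encode a LITTLE ZIPPER protein, an inhibitor of class III homeodomain-leucine zipper factors, was lower on the BO ground (-0.78, SE 0.28, adjusted p = 0.0392). Its call was lost without the filter on low values and without any 1 of the 6 ground libraries except VG ground replicate 2 (0.0561 to 0.155).

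**Figure D4:**
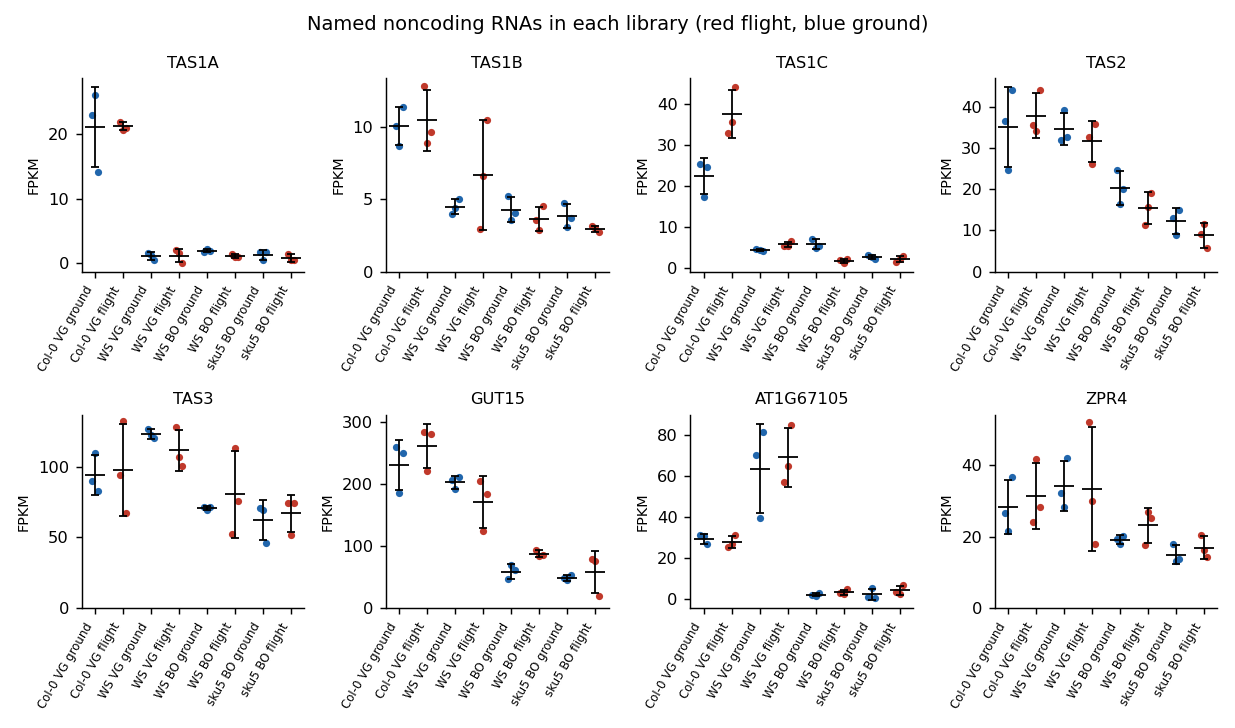
Level in FPKM (linear axis) of TAS1A, TAS1B, TAS1C, TAS2, TAS3, GUT15, AT1G67105 and ZPR4 in each library of the 8 groups. Points are libraries, red for flight and blue for ground, with mean and SD (n = 3). TAS1A lies between 14.1 and 26.0 FPKM in Col-0 and at or below 2.23 FPKM elsewhere, and AT1G67105 is low in the BO groups.

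Genes that make or use trans-acting siRNAs or act on noncoding RNA were tested as short lists. Over all genes the shares called were 11.7% in WS and 10.3% in sku5 on BO, and 32.2% between the WS ground groups. On VG they were 0.0298% in WS and 0.00532% in Col-0. In lists this short such shares make few calls, so a count of 0 does not show that these genes responded less. Of 19 genes of small RNA production and action, 0 were called by limma in any of the 4 flight comparisons, with 1 to 2 at an unadjusted p under 0.05 in each and a median of -0.10 in WS on BO beside -0.08 over all genes. They include RDR6 (-0.34 in WS on BO, adjusted p = 0.389) and DCL4 (0.06, adjusted p = 0.908). On the BO ground AGO2, SDE3 and HST were higher and RDR1 lower than on the VG ground. Of 17 siRNA target genes 12 were tested in WS and sku5 and 0 were called by limma with flight (0 to 2 at an unadjusted p under 0.05), and AT1G63400 was lower on the BO ground (-0.87, adjusted p = 0.0128). Of 11 genes of antisense RNA processing 0 were called by limma with flight, and 0 had an unadjusted p under 0.05, and CSTF77 was higher on the BO ground (0.46, adjusted p = 0.045).

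Of 18 RNA decay genes, 1 rose and 2 fell in WS on BO, and 1 fell in sku5. FRY1 fell in both lines. FRY1 is the phosphatase that removes PAP, an inhibitor of the exoribonucleases XRN2, XRN3 and XRN4. Its level was 46.2 to 50.3 FPKM in flown and 77.9 to 91.2 FPKM in ground WS, and 47.1 to 56.9 FPKM against 82.2 to 93.3 FPKM in sku5, with no overlap in either line (-0.80, adjusted p = 0.00172, and -0.75, adjusted p = 0.00297). In WS the decapping enzyme gene DCP2 rose (0.71, adjusted p = 0.00946) and the exosome-associated nuclease gene RRP6L2 fell (-0.60, adjusted p = 0.0408). Neither was called in sku5. On the ground, WS at BO held more FRY1 than WS at VG (1.12, adjusted p = 1.53e-05), and more XRN4, UPF1 and UPF2 and less UPF3 and DCP2. The flight and ground comparisons of WS share the BO ground libraries. Whether these genes have a part in the members' changes was not tested. Of 9 genes of the phosphate circuit around IPS1 and AT4, the phosphate exporter gene PHO1 rose in both lines on BO (0.93, adjusted p = 0.00456 in WS and 1.04, adjusted p = 0.00245 in sku5). Another of the 9, AT2G38940, fell in WS (-1.47, adjusted p = 0.0125) and was not called in sku5 (-1.11, adjusted p = 0.0528). On the WS ground 5 of the 9 were higher and 3 lower at BO than at VG, PHO1 among the lower (-0.85, adjusted p = 0.0024). Over all genes that comparison called 16.9% higher and 15.3% lower.

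Calls are given here for members antisense to a coding gene and for the others, and the difference between these classes was not tested. In WS on BO 6 of 40 such members rose and 2 fell, and of the other 50 12 rose and 2 fell. For the vehicle difference 3 of the 40 were called in the positive and 1 in the negative direction, and 11 and 2 of the other 50. Of the coding partners of members that rose in WS, 4 were not called and 4 were too low to test. AT3G48115 rose (1.16, SE 0.25, adjusted p = 0.00631) while its partner AT3G48120 stood at 11.1 ± 3.85 FPKM after flight and 9.34 ± 1.17 FPKM on the ground (SD, n = 3; 0.19, adjusted p = 0.706). AT4G20362 rose (1.24, SE 0.38, adjusted p = 0.046) over the gene RABE1b, which was not called (0.04, adjusted p = 0.916), and that rise lost its call in 9 alternative settings. AT2G13660, the partner of AT2G13665, was listed at 0 in all BO libraries. How strand was used in counting is not stated, so reads of such a pair cannot be told apart where the 2 overlap. The overlap covers 49.5% of AT3G48115, 97.8% of AT2G13665 and, with RABE1b, 99.9% of AT4G20362. The nearest coding gene of the 18 RNAs that rose in WS was not called in 12 cases, not tested in 5, and lower in 1, AT2G18740 beside AT2G18735 (-0.53, adjusted p = 0.0134).

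By position, 46 of the 102 members overlapped a coding gene, 27 lay more than 500 bases from any, and the others lay within 500 bases. Of those within 500 bases, 11 faced a coding gene end to end, 7 lay just before one and 5 just after one on the same strand, and 6 faced away from its start. Among the 13 that rose in both lines these classes held 3, 3, 3, 3, 0 and 1 members. In the promoter windows of the 13, TATCCA was found in 3 (AT1G46554, AT1G66173 and AT2G31585), the G-box and the I-box in 1 each and the evening element in 0.

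Of 9 markers of shoot tissue, 6 could be tested in WS and sku5, and LHCB1.3 was the only one called with flight, in sku5 on BO (1.29, adjusted p = 0.00564). LHCB1.1, RBCS3B and CA1 had negative changes in both lines on BO (-0.26, -0.86 and -0.35 in WS). The summed level of the 9 was 465 to 543 FPKM in flown and 285 to 454 FPKM in ground WS on BO, and 495 to 631 FPKM against 268 to 400 FPKM in sku5. At VG it was 145 to 246 FPKM against 87.4 to 136 FPKM in WS and 109 to 146 FPKM against 86.4 to 267 FPKM in Col-0. AG, a flower marker, was listed at 0 in all libraries of every WS and sku5 group. LHCB1.3 and RBCS1A were higher on the BO than on the VG ground (1.23 and 1.95). The summed level of 8 root markers was 150 to 357 FPKM over all libraries. None of the 8 was called with flight, while CASP1, CASP2, COBL9 and EXPA7 were higher and SHR lower on the BO than on the VG ground. The part of tissue makeup in the members' changes was not tested, and in whole roots fewer cells of a type and less RNA per cell cannot be told apart.

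Many members differed in level between the accessions, given here without a test because the mean level chose them. Among the 6 Col-0 and 6 WS libraries of VG, 26 members (25.5%) were higher in every Col-0 library and 10 (9.8%) in every WS library, and 66 overlapped. Among all genes at 5 FPKM or more these shares were 6.54% and 6.32%. Of the members, 24 averaged 5 FPKM or more only in Col-0, 6 only in the WS and sku5 table, and 72 in both. Members could thus pass the threshold through the table in which they were high. That split is not given for all genes, so the shares cannot show that noncoding RNAs differed more between the accessions than other genes. The 2 tables were made separately, and the genome to which WS reads were aligned is not given in the sources used here. AT5G48412 stood at 717 to 808 FPKM in Col-0 and was listed at 0 in all 18 WS and sku5 libraries, as were 6 other members. AT1G25098, which has near-identical copies, stood at 445 to 606 FPKM in Col-0 and at most at 1.58 FPKM in WS. In the other direction, AT2G05914 stood at 0 to 1.89 FPKM in Col-0 and 96.9 to 126 FPKM in WS, and AT3G27884 at 25.3 to 64.0 FPKM and 290 to 555 FPKM.

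**Figure D5:**
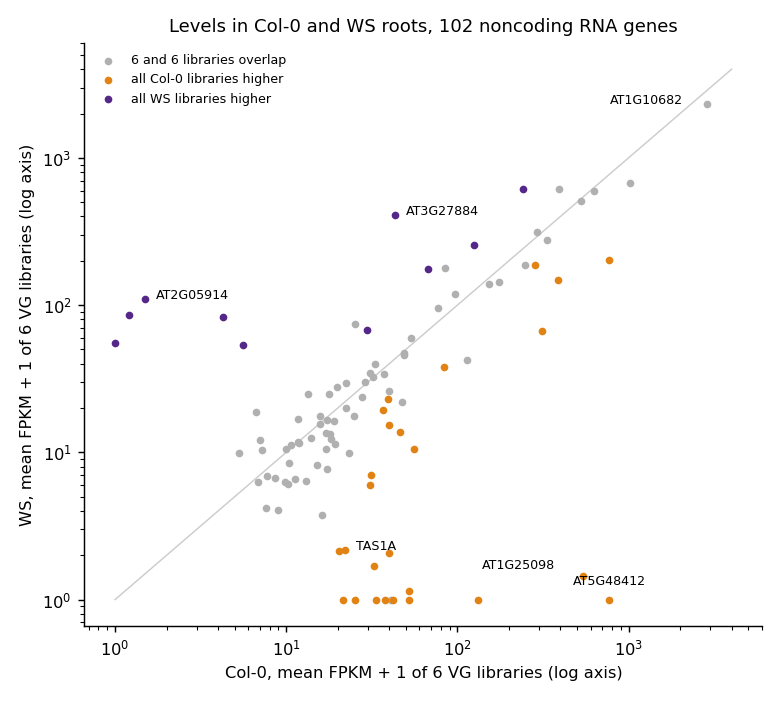
Mean level plus 1 of each of the 102 noncoding RNAs over the 6 Col-0 VG libraries (x axis) and the 6 WS VG libraries (y axis), in FPKM on log axes. Each point is 1 RNA, orange where all Col-0 libraries were higher (26), purple where all WS libraries were higher (10) and grey where they overlapped (66), and the line marks equal levels. Points on the bottom edge were listed at 0 or near 0 in WS.

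The authors' deposited tables of changed genes held members for BO only. The authors' deposited table for WS on BO lists 865 genes, 15 of them members, 13 higher and 2 lower. The authors' deposited table for sku5 on BO lists 923 genes, 17 of them members, all higher. Each of these 15 and 17 was called here in the same direction. The authors' deposited tables for VG list 57 genes in WS and 13 in Col-0, with 0 members in each. The list for WS on VG does hold 3 noncoding rows that are not members, AT1G17255, AT2G30362 and AT2G35859. All listed members carry a protein-coding label there, unlike in the expression table.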

How the data were processed

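Root poly(A) RNA of 24 libraries was analysed, 3 for each of 8 groups, grouped by the labels. Per the submitters' processing notes, reads were handled with Trimmomatic 0.36, FastQC 0.11.4, MultiQC 1.1, STAR 2.7.3a and RSEM 1.2.31, and changed genes with DESeq2. Genome build, annotation and strand setting: not given in the sources used here. The authors deposited FPKM for Col-0 (33469 genes, 6 libraries) and for WS and sku5 (32844 genes, 18 libraries). That the unit is FPKM was read from the values. The authors also deposited 4 lists with a log2 fold change per gene, which were only described.

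The design had allowed for counts, and since the files hold FPKM the test for normalized values was used. Values were transformed to log2(FPKM + 1), after genes reaching 1 FPKM in fewer than 3 fitted libraries had been left out, and tested two-sided with limma 3.58.1 (trended prior variance, R 4.3.3). P-values were adjusted by Benjamini-Hochberg over all genes of a comparison and called under 0.05. The 18 WS and sku5 libraries were fitted together (12 residual degrees of freedom) and Col-0 alone (4). Tests stayed within a table. Fits were tested on simulated data. Factors for the TMM alternative (trimmed mean of M-values) were computed with a function written for this purpose. Tables were joined and summarised in pandas 2.3.3 under Python 3.11.15, with numpy 2.4.6; scipy 1.17.1 and matplotlib 3.10.9 served correlations and plots. Positions, sequences and copies (at least 100 bases at 97% identity) came from RefSeq TAIR10.1.

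The members and lists were chosen with earlier results of these data known. Named were the 10 most abundant members, up to 10 called per direction and comparison, members with a symbol, those nearest the threshold, and coding partners of called members. A few others were chosen after their values were seen (AT2G18735 with its neighbour, AT3G46668, AT5G09443, AT1G07728, AT1G78265, AT3G54366). Replicate numbers did not pair libraries: correlations of same-numbered deviations ran from -0.227 to 0.143. Alternatives were other pseudocounts, filters, scalings, a replicate block, fewer libraries in the fit, and leaving out libraries.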

Additional observations from a re-analysis of the deposited data

Results flagged for a closer look

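For 17 noncoding RNAs the flight change of WS roots differed between the vehicles, by limma's test of the BO change minus the VG change over all genes (6.83% of all genes tested were called). The differences below are on the log2(FPKM + 1) scale. Year, site, plant age, ground housing and vehicle cannot be told apart.

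In 14 RNAs the change was more positive on BO. The differences were 4.00 for AT4G39404, 2.60 for AT3G61198, 2.46 for AT1G11175, 2.16 for AT1G66173 and 2.01 for AT1G11185. They were 1.87 for AT2G13665, 1.86 for AT4G38932, 1.71 for AT5G24735, 1.55 for AT1G69252 and 1.41 for AT1G46554. They were 1.34 for AT2G31585, 1.296 for AT3G48115, 1.25 for AT3G46668 and 1.11 for AT2G18735. AT4G39404 is a short RNA whose open reading frame fills the transcript, and it was listed at 0 in WS VG flight replicate 3 and in 2 of the WS BO ground libraries, with 3.65 FPKM in the other one.

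In 3 RNAs the change was more negative on BO, with -1.11 for AT3G12965, -1.64 for TAS1C and -3.03 for AT3G57157. AT3G57157 held 30.8, 99.6 and 18.1 FPKM in flown and 44.0, 30.2 and 47.9 FPKM in ground WS at VG, where the groups overlapped. The calls of AT3G57157, AT4G39404, AT3G12965 and AT1G46554 were lost in 10 to 14 of 20 alternative settings. TAS1C was the only TAS precursor among the 17.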

How the results depend on the processing

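The count of members called in sku5 on BO was 19, and 12 when only the compared libraries were fitted. The vehicle difference in WS called 17, 11 without the filter on low values, and 9 to 18 when single libraries were left out. The lowest counts came without WS VG flight replicate 2, WS VG ground replicate 1 or WS VG ground replicate 3 (9 each), WS BO ground replicate 3 (10), or WS BO flight or ground replicate 1 (11 each). In WS on VG the range was 0 to 1, with 1 lower member without flight replicate 3. With single libraries left out, WS on BO gave 15 to 20 against 22, sku5 on BO 13 to 23 and the ground comparison 37 to 40 against 48. Without WS BO ground replicate 1, calls over all genes in WS on BO were 879 against 2345.

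With the replicate block the counts were 21 in WS on BO, 18 in sku5 on BO, 14 for the vehicle difference, 48 for the ground comparison and 0 in the other 4, and the numbers do not pair the libraries. Scaling by TMM moved the median of all genes in sku5 on BO from -0.09 to 0 and the share of rises among its calls from 49% to 65.9%, with 18 members higher and 1 lower. It moved the median sku5-minus-WS difference from -0.01 to 0.10.

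None of the 56 named values that were called changed sign in any setting run, while 21 of the 57 that were not called did in at least 1, among them GUT15 in sku5 and TAS3 in WS with BO flight. Of the named called members, 9 of 14 in WS on BO, 9 of 12 in sku5, 8 of 13 for the vehicle difference and 11 of 13 on the ground kept their call in every alternative run. Lost in at least 1 were AT1G46554, AT1G70581, AT2G05914, AT3G12965 and AT4G20362 in WS, AT1G18745, AT2G05914 and AT2G26355 in sku5, AT3G57157 and AT3G12965 on the ground, and, for the vehicle difference, AT3G57157 in 14 of 20 settings, AT4G39404 in 12, AT3G12965 in 11, AT1G46554 in 10 and AT1G69252 in 4. TAS2 and ZPR4 on the ground, outside that count, lost theirs in 5 and 6 of 13. Leaving out the 3 WS and sku5 libraries that stood apart was chosen after seeing the data. The cause of these shifts was not tested. Depth is unknown, so no counting interval could be given for low RNAs.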
